A study of Mus musculus with 18 samples.

Results

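The 10 genes described here carry out and control antigen presentation on MHC class I: the heavy chains H2-K1 and H2-D1, their light chain B2m, the peptide transporter subunits Tap1 and Tap2, the loading factor Tapbp, the immunoproteasome subunits Psmb8, Psmb9 and Psmb10, and the regulator Nlrc5. They were chosen by name from the 51912 genes of the table, each by the Ensembl identifier that the GRCm38 annotation pairs with its symbol, and all 10 had counts in every library. RNA was sequenced from B cells of C57BL/6 mice, either wildtype (WT) or lacking endophilin A2 (Sh3gl1-/-), in 3 states. Flow sorting gave transitional and follicular B cells, whose RNA was taken without treatment (*ex vivo*), and a further set of follicular cells of either genotype was cultured for 14 h with CD40L, which activates B cells by way of their CD40 receptor. The culture time is that of the labels, and the study's figure legends give a longer one. Each of the 6 groups held 3 libraries, labelled as biological replicates from littermates, and the 18 libraries held between 12404665 and 18366011 counts. Sh3gl1 was deleted in the whole animal, so every cell type of the Sh3gl1-/- mice lacked it, and ages were not given in the sources used here.

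MHC class I molecules display short peptides from inside the cell to CD8+ T cells. Proteasomes cut proteins into peptides, the Tap1-Tap2 transporter carries the peptides into the endoplasmic reticulum, and tapasin, the product of Tapbp, holds the empty heavy chain and its B2m partner next to the transporter until a peptide is bound. In haematopoietic cells the subunits Psmb8, Psmb9 and Psmb10 can replace the constitutive catalytic subunits Psmb5, Psmb6 and Psmb7, which forms the immunoproteasome. Nlrc5 is a member of the NLR family that acts at class I promoters, much as its relative Ciita acts at class II promoters, and interferons raise most of these genes through factors such as Irf1.

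Sh3gl1 itself followed the labels. It lay between 29.8 and 57.9 CPM (read counts scaled to library size with TMM factors) in the 9 WT libraries and between 0.1 and 1.8 CPM in the 9 Sh3gl1-/- libraries. Of the B-cell markers, Cd79a lay between 2614 and 5382 CPM, Ms4a1 between 2019 and 5373 CPM and Pax5 between 374 and 591 CPM over the 18 libraries. All 5 B-cell markers were lower in Sh3gl1-/- than in WT cells of each state, with 0 called. Their median log2 fold changes were -0.26 in transitional, -0.19 in follicular and -0.15 in CD40L-cultured cells. Their sums overlapped between genotypes in transitional libraries but not in follicular or CD40L-cultured libraries. Cd93, which marks transitional cells, was higher in transitional WT cells at 64.9 ± 7.38 CPM (SD, n = 3) than in follicular WT cells at 12.9 ± 1.36 CPM. Markers of other cell types were present and differed with the genotype. The 6 T-cell markers (Cd3e, Cd3d, Cd3g, Cd4, Cd8a, Cd8b1) summed to 37.9-66.4 CPM in transitional WT and 62.1-104.7 CPM in transitional Sh3gl1-/- libraries, to 61.5-80.0 and 115.4-148.8 CPM in follicular libraries, and to 9.32-12.9 and 15.7-19.6 CPM after CD40L. Of the T-cell list, 2 of 6 genes were called higher in follicular Sh3gl1-/- cells and 0 of 6 in transitional Sh3gl1-/- cells. The 5 erythroid markers summed to 1416-2429 CPM in transitional WT and 2744-5864 CPM in transitional Sh3gl1-/- libraries, and all 5 were called higher there. The 4 plasma-cell markers, almost wholly Jchain, summed to 410-652 and 1068-4529 CPM in the same libraries, with 1 called higher, so that both sums reached the level of Cd79a. In bulk RNA, fewer cells of a type and less RNA per cell cannot be told apart.

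Of the 10 genes, 7 lie on chromosome 17, the chromosome of Sh3gl1 (chr17:56016750-56036635, minus strand, GRCm38). The nearest of them, H2-D1 (chr17:35262730-35267499, plus strand), ends 20.75 Mb from Sh3gl1, and the farthest, Tapbp (chr17:33915899-33929292, plus strand), ends 22.09 Mb from it. H2-K1 lies at chr17:33996017-34000347 on the minus strand. Psmb9 (chr17:34181987-34187764, minus strand), Tap1 (chr17:34187553-34197225, plus strand), Psmb8 (chr17:34197721-34201454, plus strand) and Tap2 (chr17:34203527-34216321, plus strand) stand next to each other within 34.3 kb. Psmb9 and Tap1 are transcribed away from each other and overlap by 212 bases. B2m lies at chr2:122147686-122153083 on the plus strand, Nlrc5 at chr8:94434356-94527272 on the plus strand and Psmb10 at chr8:105935735-105938444 on the minus strand. Whether differences between alleles around the Sh3gl1 locus bear on the 7 chromosome 17 genes, or on the other class I genes named below, was not tested.

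The promoters of the heavy chains and of B2m are shown because these 3 genes encode the class I molecule itself and because their levels moved differently below. Each line gives the 250 bases before the RefSeq transcription start (GRCm38.p6), 5' to 3' on the strand of the gene, for H2-K1 (chr17:34000348-34000597, minus strand), H2-D1 (chr17:35262844-35263093, plus strand) and B2m (chr2:122147437-122147686, plus strand). Capitals mark matches, on either strand, to a kappaB-type motif (GGGNNTTCC), 2 spacings of an interferon-response-type motif (GAAANNGAA and GAANNGAAA), a CRE-type motif (TGACG) and the CCAAT box (CCAAT).
H2-K1: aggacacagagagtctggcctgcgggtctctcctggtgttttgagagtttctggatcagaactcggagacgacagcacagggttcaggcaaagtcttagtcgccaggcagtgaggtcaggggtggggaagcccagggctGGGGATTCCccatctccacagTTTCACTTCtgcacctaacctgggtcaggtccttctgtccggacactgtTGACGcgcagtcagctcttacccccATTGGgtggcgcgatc
H2-D1: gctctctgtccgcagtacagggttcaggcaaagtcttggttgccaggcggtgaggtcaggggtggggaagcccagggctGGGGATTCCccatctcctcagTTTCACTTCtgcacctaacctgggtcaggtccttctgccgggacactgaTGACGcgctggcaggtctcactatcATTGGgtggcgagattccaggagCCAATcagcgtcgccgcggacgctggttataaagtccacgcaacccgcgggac
B2m: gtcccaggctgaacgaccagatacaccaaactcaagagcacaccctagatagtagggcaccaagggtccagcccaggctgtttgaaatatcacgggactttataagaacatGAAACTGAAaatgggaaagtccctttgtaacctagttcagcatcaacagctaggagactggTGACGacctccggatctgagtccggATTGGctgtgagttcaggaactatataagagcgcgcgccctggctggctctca

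H2-K1 and H2-D1 were alike over most of these windows, with 161 identical bases in an aligned stretch of 177 (91.0%), displaced because the annotated start of H2-D1 lies further downstream. Both held the kappaB-type match, GAANNGAAA, TGACG and CCAAT in that order. B2m held GAAANNGAA, TGACG and CCAAT. Of the 8 genes with a RefSeq window, CCAAT was found in 6, TGACG in 5, GGGNNTTCC and GAANNGAAA each in 2 (H2-K1 and H2-D1), and GAAANNGAA in 1 (B2m). Among the windows of 27025 genes, CCAAT was found in 34.5%, TGACG in 17.9%, GAAANNGAA in 7.16%, GAANNGAAA in 6.34% and GGGNNTTCC in 4.88%. The windows of Tap1 and Psmb9 share 225 of their 250 bases on opposite strands. The motifs were chosen after the windows had been read, and a match describes letters, not binding. Tap2 and Nlrc5 were not searched.

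Levels scaled to both transcript length and library size (TPM) spanned a wide range. B2m was the most abundant with 4657 ± 409 TPM (SD, n = 18 libraries), followed by H2-K1 with 1059 ± 122 TPM, and neither range touched the next gene's. H2-D1 (385 ± 93.5 TPM) and Psmb8 (367 ± 54.9 TPM) could not be ordered, since H2-D1 was above Psmb8 in 9 of 18 libraries. Tapbp (259 ± 38.0 TPM) was above Psmb10 (200 ± 45.9 TPM) in 18 of 18 libraries, and Psmb10 above Psmb9 (148 ± 33.8 TPM) in 18 of 18. Tap2 (67.0 ± 20.1 TPM) was above Tap1 (53.6 ± 12.9 TPM) in 16 of 18. Nlrc5 was the least abundant with a mean of 24.025 TPM and an SD of 8.46 TPM, between 1.07% and 4.18% of H2-K1 in the same library. Together the 10 genes made up between 0.605% and 0.797% of a library's TPM.

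**Figure D1:**
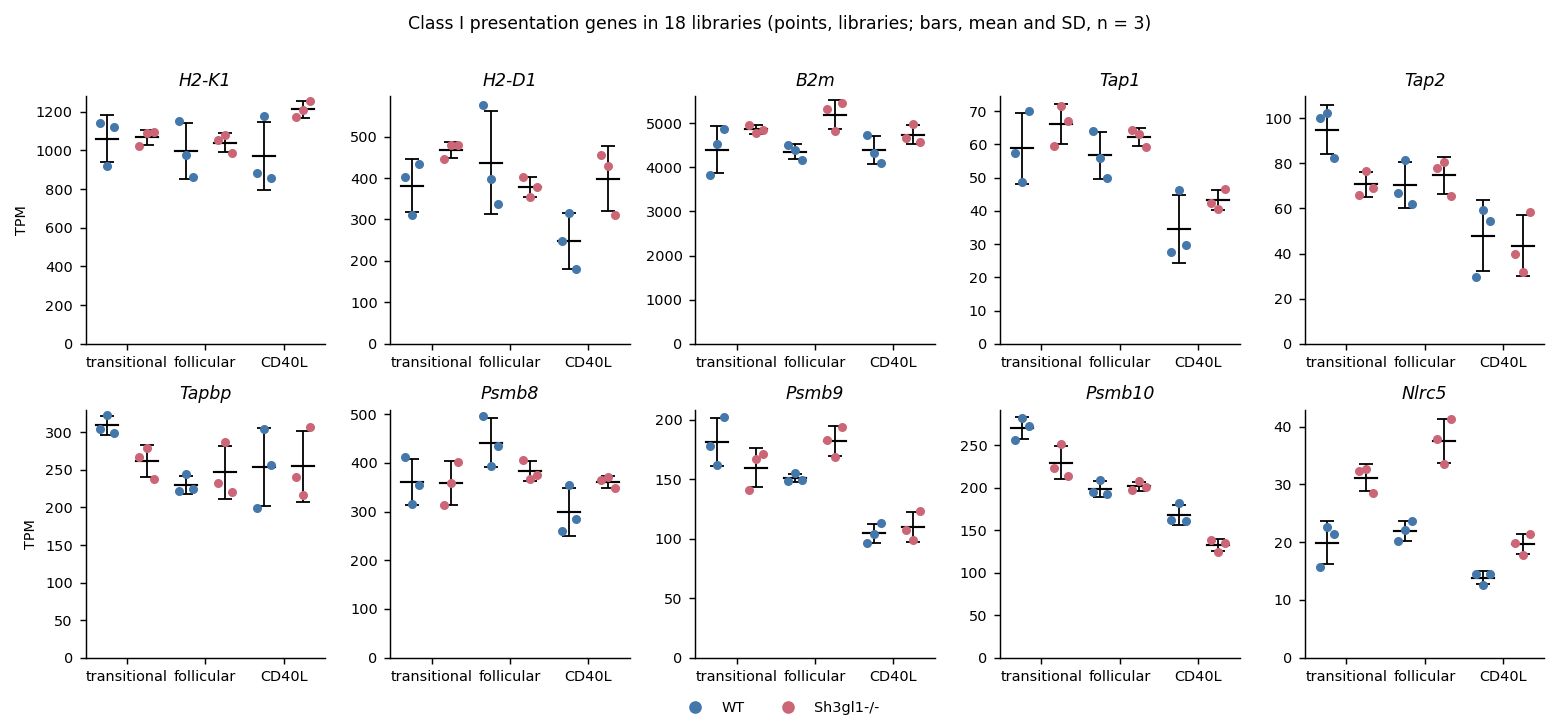
TPM (vertical axis, linear from 0, 1 panel per gene) of the 10 class I presentation genes in each of the 18 libraries, by cell state (horizontal axis) and genotype (colour), with the mean and SD of 3 libraries. Nlrc5 stands higher in Sh3gl1-/- than in WT libraries in each state, and within each genotype the means of Tap1, Tap2, Psmb9, Psmb10 and Nlrc5 are lowest after CD40L.

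The heavy chains share sequence with relatives, and some neighbouring genes share sequence with other annotated genes. This limits how firmly their counts can be assigned. Of the 50-base stretches in the annotated transcripts of H2-K1, 9.63% also occurred in transcripts of another gene, and 12.8% of those of H2-D1, among them H2-Q7 for both. The share was 23.2% for Tapbp, 11.9% for Psmb8, 11.6% for Tap2, 4.19% for Psmb9, 3.33% for Tap1 and 0.338% for Nlrc5, while B2m and Psmb10 shared none. Matches were counted on either strand. Tapbp shared mainly with Gm19412 (20.3%), and Psmb9 only with Tap1, which it overlaps. RSEM divides such reads between genes by estimation.

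The first question was whether loss of Sh3gl1 changed these genes within each cell state. In follicular cells *ex vivo*, Nlrc5 was higher in Sh3gl1-/- cells. Its CPM values were 35.4, 35.8 and 42.1 in WT and 65.8, 57.7 and 60.3 in Sh3gl1-/- libraries, so the groups did not overlap. The log2 fold change was 0.70 ± 0.11 (SE), a 1.62-fold difference, with an adjusted p of 0.0162 by edgeR's quasi-likelihood test over 13610 genes. It was the only 1 of the 10 genes called, where 0.845% of all genes tested were called and 0.485% were called higher. Nlrc5 lost the call without WT library 1, WT library 2, Sh3gl1-/- library 1 or Sh3gl1-/- library 3, with log2 fold changes of 0.64 to 0.78 and adjusted p up to 0.0868 over the 6 omissions. A fit of all 18 libraries also ended it (0.70, adjusted p = 0.116). The T-cell marker sums given above were higher in Sh3gl1-/- libraries without overlap. So were those of 7 neutrophil markers (46.3-111.0 CPM in WT, 113.5-553.3 CPM in Sh3gl1-/-) and 4 plasma-cell markers (46.3-105.0 and 116.2-146.8 CPM). The sums of 5 B-cell markers (11274-11674 and 9966-10491 CPM) were lower without overlap. Also lower were those of 4 marginal zone markers (178-218 and 146-156 CPM) and 2 transitional markers (186-222 and 134-139 CPM). Of these 2, Cd24a was lower (means of 193 and 115 CPM) and Cd93 higher (12.9 and 21.1 CPM). Sums of 4 NK-cell markers (25.6-80.9 and 60.0-84.0 CPM), the 5 erythroid markers (876-2361 and 1879-5797 CPM) and the follicular, macrophage and dendritic-cell lists overlapped. The part of these marker differences in the Nlrc5 difference was not tested.

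B2m, the light chain, had 2900, 2761 and 2718 CPM in WT and 3562, 3127 and 3817 CPM in Sh3gl1-/- follicular cells. These groups did not overlap either, but the log2 fold change of 0.32 ± 0.07 had an adjusted p of 0.0702. For Psmb9, which gives the immunoproteasome one of its catalytic sites, CPM values of 145, 151 and 148 in WT stood below 184, 165 and 206 in Sh3gl1-/- cells (log2 fold change 0.32 ± 0.10, adjusted p = 0.201). In CPM, 5 of the 10 genes (B2m, Tapbp, Psmb9, Psmb10, Nlrc5) were higher in all Sh3gl1-/- than in all WT follicular libraries and 0 were lower, beside 8.47% and 8.43% of 13015 genes with at least 10 counts throughout a group. The heavy chains were not called, with log2 fold changes of 0.12 ± 0.09 for H2-K1 and -0.19 ± 0.17 for H2-D1, and the latter turned to 0.10 without follicular WT library 1. The median log2 fold change was 0.17 over the 10 genes and -0.0029 over all genes tested.

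In transitional cells the single call was Tap2, a subunit of the peptide transporter, which was lower in Sh3gl1-/- cells. Its values were 192, 205 and 167 CPM in WT and 133, 147 and 139 CPM in Sh3gl1-/- libraries, without overlap. The log2 fold change was -0.43 ± 0.10 with an adjusted p of 0.0460, where 3.73% of 13774 genes were called and 2.48% were called lower. Leaving out WT library 1, WT library 2 or any 1 of the 3 Sh3gl1-/- libraries ended the call, with adjusted p up to 0.182, as did a fit of all 18 libraries (-0.43, adjusted p = 0.280). In the same libraries the erythroid and plasma-cell sums given above were higher in Sh3gl1-/- cells, as were those of 7 neutrophil markers (37.4-61.3 CPM in WT, 76.6-376.6 CPM in Sh3gl1-/-). The sums of 4 marginal zone markers were lower (328-353 and 195-238 CPM). So were those of 2 transitional markers (375-470 and 221-332 CPM), through Cd24a (means of 366 and 200 CPM). The other transitional marker, Cd93, was not lower (64.9 and 75.5 CPM). The part of these marker differences in the Tap2 difference was not tested. Tap1, the partner subunit, went the other way at 114, 103 and 137 CPM in WT and 126, 158 and 151 CPM in Sh3gl1-/- cells, with overlapping groups (log2 fold change 0.30 ± 0.13, adjusted p = 0.213).

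Nlrc5 in transitional cells had 21.5, 37.0 and 40.2 CPM in WT and 55.1, 49.0 and 52.2 CPM in Sh3gl1-/- libraries. WT library 1 was the lowest of all 6. The log2 fold change of 0.67 ± 0.20 had an adjusted p of 0.0967, and it was 0.44 without that library. H2-D1 had 459, 373 and 546 CPM in WT and 567, 624 and 660 CPM in Sh3gl1-/- libraries (log2 fold change 0.43 ± 0.13, adjusted p = 0.105). The remaining 6 genes had log2 fold changes between -0.16 and 0.22 and adjusted p of at least 0.213. In CPM, 3 of the 10 genes (H2-D1, B2m, Nlrc5) were higher in all Sh3gl1-/- libraries and 3 (Tap2, Tapbp, Psmb10) were lower in all of them, beside 14.3% and 15.1% of 13145 genes. The median log2 fold change of the 10 was 0.087, and that of all genes tested 0.016.

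After culture with CD40L, 0 of the 10 genes were called between genotypes by edgeR or by DESeq2, where 0.0227% of 13188 genes were called by edgeR, and 3 of the 10, beside 932 of all genes, had an unadjusted p under 0.05. Psmb10 had 141, 145 and 140 CPM in WT and 113, 99.3 and 105 CPM in Sh3gl1-/- cells, with no overlap (log2 fold change -0.40 ± 0.12, adjusted p = 0.538). Nlrc5 had 23.7, 18.8 and 24.7 CPM in WT and 31.9, 27.7 and 31.3 CPM in Sh3gl1-/- cells, also without overlap (0.46 ± 0.17, adjusted p = 0.663). H2-K1 had 1251, 1550 and 1193 CPM in WT and 1565, 1583 and 1559 CPM in Sh3gl1-/- cells, again without overlap (0.27 ± 0.12, adjusted p = 0.707). In CPM, 2 of the 10 genes were thus higher and 1 lower in all Sh3gl1-/- libraries, beside 6.47% and 8.04% of 12559 genes. Nlrc5 was therefore higher in every Sh3gl1-/- library than in every WT library of the same state in all 3 states, with a call in follicular cells. The share of all genes with such a pattern in all 3 states was not counted. The summed T-cell markers were likewise higher in the Sh3gl1-/- groups after CD40L, with no gene of that list called. Sums of 7 neutrophil markers were higher without overlap in all 3 states (5.94-28.9 and 31.25-122.6 CPM after CD40L). Those of 4 marginal zone markers (110-112 and 72.8-98.9 CPM after CD40L) and 2 transitional markers (44.0-73.9 and 30.3-40.3 CPM) were lower in all 3. The part of these marker differences in the Nlrc5 difference was not tested. H2-D1 varied widely, at 374, 478 and 270 CPM in WT and 699, 617 and 427 CPM in Sh3gl1-/- cells, with overlapping groups (0.66 ± 0.23, adjusted p = 0.639). The median log2 fold change of the 10 was 0.14, and that of all genes 0.014.

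**Figure D2:**
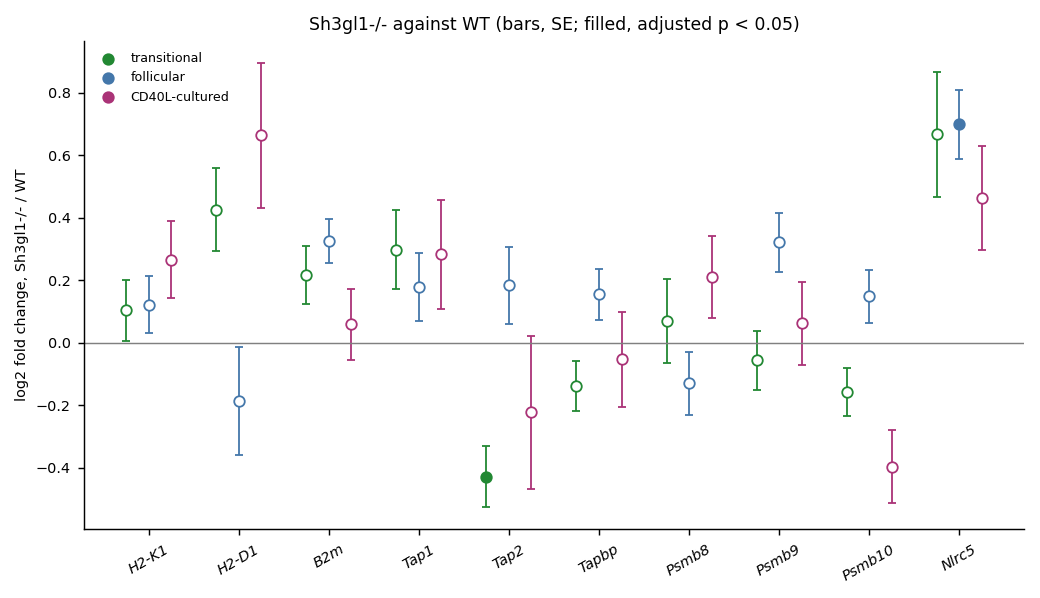
Log2 fold change of Sh3gl1-/- over WT (vertical axis, 0 is no difference) for each of the 10 genes (horizontal axis) in transitional, follicular and CD40L-cultured cells, with the SE from edgeR; filled points have an adjusted p under 0.05. Nlrc5 lies above 0 in all 3 states (0.67, 0.70 and 0.46), while Tap2 is the only gene called lower, in transitional cells.

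Companion genes were read in the same fits. Among 13 tested of 17 other class I and class I-like heavy chains, H2-Q6 (log2 fold change 0.57 ± 0.10, adjusted p = 0.0234) and H2-Q7 (0.67 ± 0.12, adjusted p = 0.0301), non-classical class I chains whose sequences resemble each other and H2-K1, were called higher in follicular Sh3gl1-/- cells and 0 lower. Over all genes tested, 0.845% were called and 0.485% were called higher. Whether reads shared between such chains bear on these calls was not tested. Of 14 regulators of class I promoters, 2 were called higher and 0 lower, among them Irf1, which carries part of the response to interferon (0.57 ± 0.08, adjusted p = 0.0109). Irf1 had 95.3 ± 4.41 CPM in WT and 142 ± 3.11 CPM in Sh3gl1-/- follicular cells (SD, n = 3). Of 20 interferon-induced genes, 1 was called, Iigp1, an interferon-inducible GTPase, at 0.79 ± 0.40 CPM in WT and 4.42 ± 2.07 CPM in Sh3gl1-/- cells (adjusted p = 0.0496), and the list's median log2 fold change was 0.051, beside -0.0029 for all genes. By edgeR, 0 of 10 loading and trimming partners, 0 of 7 constitutive proteasome and PA28 genes and 0 of 9 tested interferon receptor and signalling genes were called in follicular cells, with 0, 1 and 1 at an unadjusted p under 0.05.

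In transitional cells, the companion lists held calls in both directions, where 3.73% of all genes tested were called. Ciita, the class II transactivator, was higher in Sh3gl1-/- cells (226 ± 9.15 CPM in WT, 367 ± 27.5 CPM in Sh3gl1-/-, log2 fold change 0.70 ± 0.09, adjusted p = 0.00925). Cd1d1, a class I-like chain that presents lipids (-0.69 ± 0.10, adjusted p = 0.0130), the tapasin relative Tapbpl (-0.37 ± 0.08, adjusted p = 0.0447), Stat2 (-0.43 ± 0.10, adjusted p = 0.0476) and the guanylate-binding protein Gbp2 (-0.45 ± 0.09, adjusted p = 0.0332) were lower. Cd1d1 is also 1 of the 4 marginal zone markers, whose sums were lower in the same libraries. The median over the 20 interferon-induced genes was -0.33, beside 0.016 for all genes, with 1 called. In CD40L-cultured cells edgeR called 0 of the 68 tested genes of these lists, and 9 had an unadjusted p under 0.05.

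The second question was how the genes differ after culture with CD40L. No group was cultured without CD40L, so effects of CD40L and of the culture itself cannot be told apart. After culture with CD40L a subset of the genes was lower in both genotypes, with the largest falls in Nlrc5. Nlrc5 fell from 35.4, 35.8 and 42.1 CPM to 23.7, 18.8 and 24.7 CPM in WT cells and from 65.8, 57.7 and 60.3 CPM to 31.9, 27.7 and 31.3 CPM in Sh3gl1-/- cells, and the groups did not overlap in either genotype. Groups were apart in 3 of the 10 genes in WT and 6 in Sh3gl1-/- cells, beside 60% and 56.4% of all genes with at least 10 counts throughout a group. The log2 fold changes were -0.78 ± 0.13 (adjusted p = 2.58e-04) and -1.03 ± 0.13 (adjusted p = 3.02e-05). The adjusted p stayed at or under 0.00204 in WT and 2.93e-04 in Sh3gl1-/- cells over the 6 omissions of a library.

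Psmb9 fell in both genotypes as well. It went from 145, 151 and 148 CPM to 104, 110 and 127 CPM in WT cells and from 184, 165 and 206 CPM to 126, 103 and 119 CPM in Sh3gl1-/- cells. The log2 fold changes were -0.41 ± 0.12 (adjusted p = 0.00906) and -0.69 ± 0.12 (adjusted p = 3.09e-04).

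In all, 5 of the 10 genes were called in WT cells and 4 in Sh3gl1-/- cells, each of them lower, where 49.3% and 42.4% of 14460 genes were called and 25.7% and 21.8% were called lower. The share of these genes called was thus near that of all genes. Their median log2 fold changes were -0.37 in WT and -0.23 in Sh3gl1-/- cells, beside -0.080 and -0.027 over all genes tested. In WT cells the other calls were H2-D1 (-0.59 ± 0.23, adjusted p = 0.0497), Tap1 (-0.44 ± 0.15, adjusted p = 0.0284) and Psmb8 (-0.40 ± 0.12, adjusted p = 0.0127). These 3 calls ended together when follicular WT library 1 was left out, where the log2 fold changes were -0.30, -0.32 and -0.29 with adjusted p of 0.310, 0.143 and 0.0785. H2-D1 read 746 CPM in that library and 477 and 430 CPM in the other WT follicular libraries, against 374, 478 and 270 CPM after CD40L. The H2-D1 call was also lost with RLE scaling (-0.55, adjusted p = 0.0639), where Tapbp was called higher instead. The H2-D1 and Tap1 calls were lost without follicular WT library 2 and without CD40L WT library 1 or 3.

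In Sh3gl1-/- cells the other calls were Tap2 and Psmb10. Tap2 went from 160, 164 and 151 CPM to 89.8, 70.1 and 121 CPM (-0.78 ± 0.22, adjusted p = 0.0120), without overlap. Psmb10, the third immunosubunit, went from 160, 160 and 177 CPM to 113, 99.3 and 105 CPM (-0.66 ± 0.09, adjusted p = 6.30e-05). In WT cells the same gene read 147, 156 and 144 CPM before and 141, 145 and 140 CPM after CD40L (-0.10 ± 0.09, adjusted p = 0.402). These 4 calls held with each library left out.

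The surface-molecule genes H2-K1 and B2m were not called in either genotype. H2-K1 changed by 0.13 ± 0.11 in WT and 0.25 ± 0.11 in Sh3gl1-/- cells, and B2m by 0.18 ± 0.09 and -0.10 ± 0.09. H2-D1, whose promoter window resembles that of H2-K1, changed by -0.59 ± 0.23 in WT and 0.24 ± 0.23 in Sh3gl1-/- cells. Tapbp had log2 fold changes of 0.30 ± 0.13 (adjusted p = 0.0710) and 0.07 ± 0.13. In WT cells it was called higher in 5 of 12 alternatives, among them DESeq2 (0.34, adjusted p = 0.0342), RLE scaling (0.34, adjusted p = 0.0446) and the fit of 18 libraries (0.33, adjusted p = 0.0272).

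**Figure D3:**
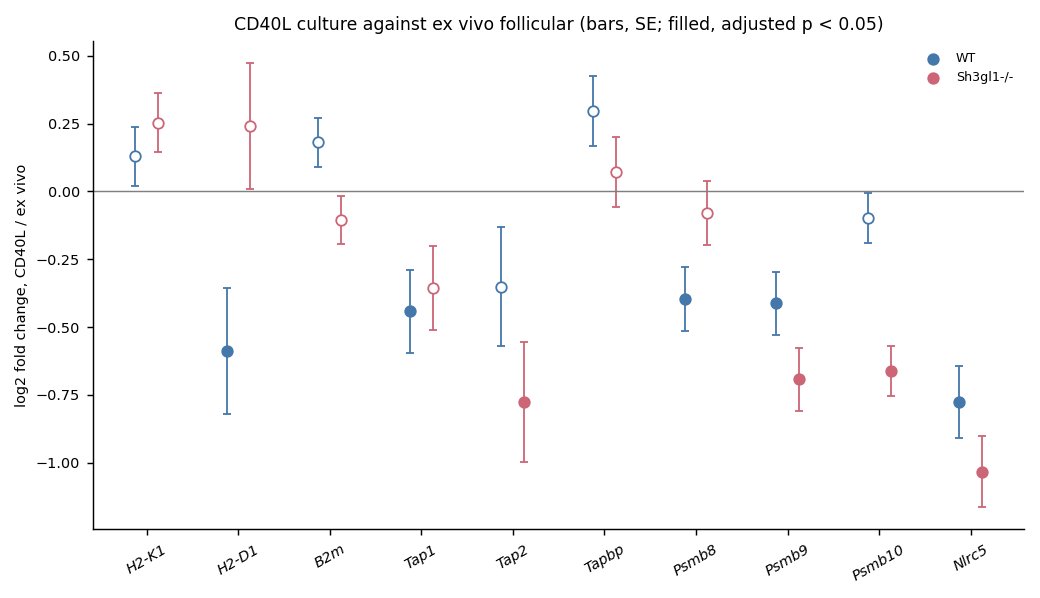
Log2 fold change of CD40L culture over ex vivo follicular cells (vertical axis, 0 is no change) for the 10 genes (horizontal axis) in WT and Sh3gl1-/- cells, with the SE from edgeR; filled points have an adjusted p under 0.05. Psmb9 and Nlrc5 are called lower in both genotypes, whereas H2-K1, B2m and Tapbp are called in neither.

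Markers of other cells moved with the culture too. The 6 T-cell markers were all called lower after CD40L in both genotypes, with median log2 fold changes of -2.86 in WT and -2.96 in Sh3gl1-/- cells, and the 4 NK-cell markers were all called lower as well (-4.59 and -4.51). The 5 erythroid markers were likewise all called lower in both genotypes (-4.52 and -6.25). Of 6 macrophage markers, 4 were called lower and 1 higher in each genotype, and of 6 tested neutrophil markers 4 were called lower in each. The part of these markers in the falls of Nlrc5 and Psmb9, or in those of the companion genes given below, was not tested.

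The immunosubunits were then set against their constitutive counterparts, which were higher after culture with CD40L. Psmb5, Psmb6 and Psmb7 had log2 fold changes of 1.001 ± 0.10, 0.98 ± 0.09 and 1.07 ± 0.10 in WT and 0.80 ± 0.10, 0.64 ± 0.09 and 0.81 ± 0.10 in Sh3gl1-/- cells, all 6 called. The immunosubunit share of each pair, Psmb8/(Psmb8 + Psmb5) and likewise Psmb9 with Psmb6 and Psmb10 with Psmb7, was computed from TPM. The Psmb8 share was 74.2% ± 2.27 in WT and 73.3% ± 1.34 in Sh3gl1-/- follicular cells (SD, n = 3) and 52.2% ± 3.47 and 60.4% ± 2.21 after CD40L. The Psmb9 share was 26.0% ± 1.15 and 30.3% ± 1.06 before and 12.1% ± 0.66 and 14.7% ± 1.77 after. The Psmb10 share was 62.4% ± 0.71 and 63.6% ± 1.15 before and 42.4% ± 2.88 and 39.5% ± 0.58 after.

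Over both genotypes, the 6 cultured and 6 *ex vivo* follicular libraries did not overlap for any of the 3 shares. The differences were -17.4 percentage points for Psmb8, -14.8 for Psmb9 and -22.0 for Psmb10, each with p = 0.00216 by a two-sided exact permutation test (adjusted p = 0.00216 over the 3 shares), the smallest p that 6 against 6 libraries allow. All 6 same-numbered pairs were lower after CD40L for each share, and flipping the signs of these pairs gave an exact p of 0.0312, the smallest that 6 pairs allow. Permuting within each genotype gave an exact p of 0.005 for each share, again the smallest possible. Both were chosen after the data had been seen, and the first test of the shares was not in the plan of tests either. Between genotypes, 3 against 3 libraries cannot reach a two-sided exact p below 0.1, so those differences are given as values. The Psmb8 share of CD40L-cultured WT libraries ran from 49.8% to 56.2%, below the 59.0% to 62.9% of Sh3gl1-/- libraries. With the counterparts called higher and no immunosubunit called higher in these same libraries, lower shares followed. The p-values of the shares are therefore not evidence separate from those calls. Shares of mRNA do not measure assembled proteasomes.

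**Figure D4:**
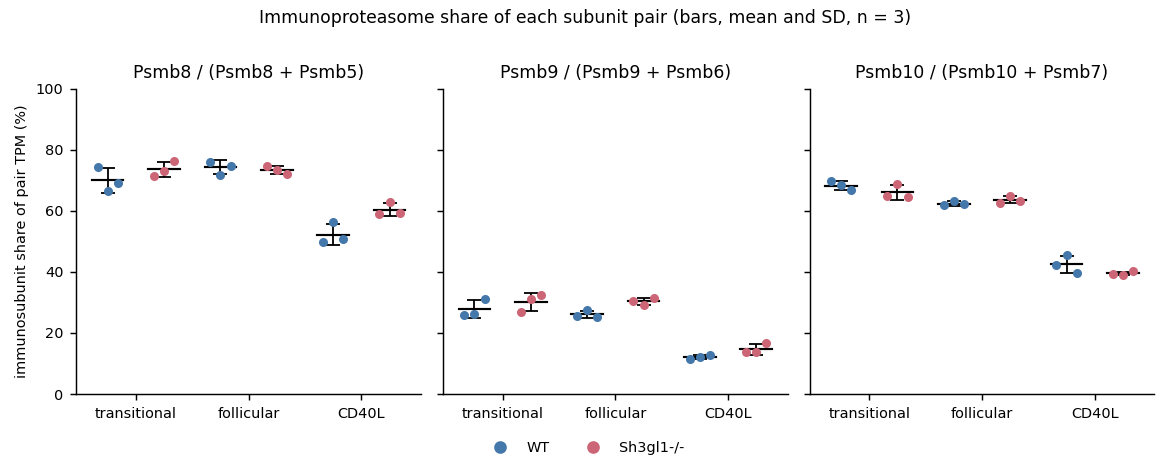
Immunosubunit share of each subunit pair in percent of the pair's TPM (vertical axis, 0 to 100) by cell state and genotype, with points for libraries and the mean and SD of 3. All 3 shares are lower in the CD40L-cultured libraries (11.4% to 62.9% across the pairs) than in the follicular libraries of the same pair.

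Other genes of the pathway differed after culture with CD40L as follows, where 49.3% of all genes tested were called in WT and 42.4% in Sh3gl1-/- cells. All 7 of the constitutive proteasome and PA28 genes were called higher in WT cells and 5 in Sh3gl1-/- cells, led by the PA28 activator subunit Psme2 (308.5 ± 13.4 CPM before and 1358 ± 78.9 CPM after in WT, log2 fold change 2.11 ± 0.10, adjusted p = 1.75e-09). Of 10 loading and trimming partners, 8 were called higher in WT and 7 in Sh3gl1-/- cells and 0 lower, led by the chaperones Calr (1.58 ± 0.08 and 1.34 ± 0.08) and Canx (1.15 ± 0.09 and 0.94 ± 0.09). Of the 13 class I-like heavy chains tested, 8 were called lower in each genotype and 0 higher. Fcgrt, the neonatal Fc receptor chain, had 416 to 511 counts per WT library before and 5 to 13 counts after culture, and H2-T24 changed by -2.31 ± 0.20 in WT and -2.62 ± 0.21 in Sh3gl1-/- cells.

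Regulators moved in both directions after CD40L. Of the 14 regulators, 6 were called lower and 3 higher in WT and 5 lower and 3 higher in Sh3gl1-/- cells. Over all genes tested, 49.3% were called in WT and 42.4% in Sh3gl1-/- cells. The regulators as a list were thus not far from all genes. Irf1 changed by -0.90 ± 0.10 in WT and -1.60 ± 0.10 in Sh3gl1-/- cells, and Irf2 by -1.31 ± 0.11 and -1.33 ± 0.11. The higher ones included Nfya, a subunit of the factor that binds CCAAT (0.68 ± 0.13 and 0.49 ± 0.13), and Creb1 in WT (0.40 ± 0.10). Of 20 interferon-induced genes, 17 were called lower and 1 higher in WT and 16 lower and 0 higher in Sh3gl1-/- cells. The interferon regulator Irf7 fell from 40.7 ± 10.2 to 2.26 ± 1.44 CPM in WT cells, and Gbp7 from 42.8 ± 10.5 to 5.08 ± 0.74 CPM. The 1 higher gene was Irgm1 (0.59 ± 0.21, adjusted p = 0.0328). Of 9 interferon receptor and signalling genes, 3 were called lower in both genotypes, among them Irf9 and Jak1, and 3 were called higher in Sh3gl1-/- cells, among them Tyk2 and Ifngr2.

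Whether the CD40L response differed between genotypes was tested as an interaction over the 12 follicular libraries. None of the 10 genes was called by edgeR, where 0% of 14460 genes were called and 1278 had an unadjusted p under 0.05. Of the 10 genes, 3 had an unadjusted p under 0.05: Psmb10 (-0.56 ± 0.13, adjusted p = 0.465), H2-D1 (0.83 ± 0.33, adjusted p = 0.511) and B2m (-0.29 ± 0.13, adjusted p = 0.553). DESeq2 called 1 of them, Psmb10 (-0.60, adjusted p = 0.00435). The call of Psmb10 in Sh3gl1-/- and not in WT cells is therefore not shown to differ between the genotypes by edgeR.

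The remaining question was how the genes differ between transitional and follicular cells. In WT cells 3 of the 10 were called lower in follicular than in transitional cells and 0 higher, where 25.9% of 14580 genes were called and 14.2% were called lower. The share of these genes called was thus near that of all genes. In CPM, 4 of the 10 were lower in all follicular WT libraries and 0 higher, while 44.1% of 13096 genes were apart in either direction. Psmb10 went from 190, 195 and 199 CPM in transitional to 147, 156 and 144 CPM in follicular WT cells (log2 fold change -0.38 ± 0.07, adjusted p = 0.00225). Tapbp went from 595, 650 and 601 CPM to 458, 498 and 483 CPM (-0.35 ± 0.08, adjusted p = 0.00452). For Tap2, 192, 205 and 167 CPM stood against 136, 167 and 115 CPM (-0.43 ± 0.12, adjusted p = 0.0180). The Tap2 call was lost without transitional WT library 2, follicular WT library 1 or follicular WT library 3 (adjusted p up to 0.0773) and in a fit of all 18 libraries (adjusted p = 0.136).

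Psmb8 went the other way, from 346, 262 and 294 CPM to 434, 333 and 382 CPM, with overlapping groups. Its log2 fold change of 0.36 ± 0.13 had an adjusted p of 0.0551, and a fit blocked on replicate number called it (0.36, adjusted p = 0.0346). In Sh3gl1-/- cells 0 of the 10 genes were called by edgeR or DESeq2 and 0 had an unadjusted p under 0.05, where 10.4% of 14580 genes were called. For 10 genes, 0 calls is near that share too. The median log2 fold change of the 10 was -0.017 in WT and 0.045 in Sh3gl1-/- cells. Tap2 in the latter had 133, 147 and 139 CPM as transitional and 160, 164 and 151 CPM as follicular cells (0.17 ± 0.12, adjusted p = 0.431).

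**Figure D5:**
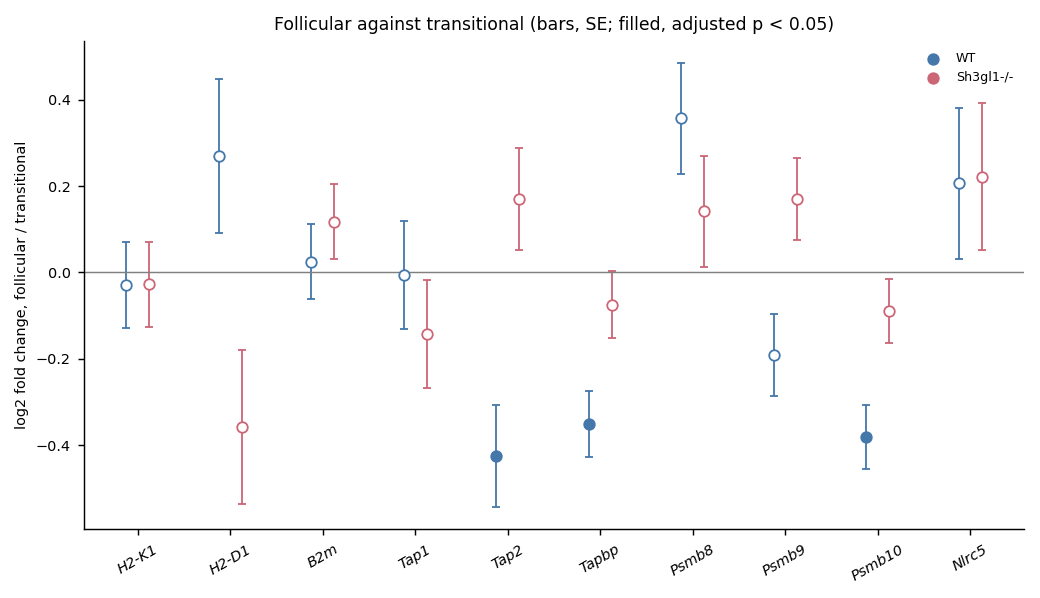
Log2 fold change of follicular over transitional cells (vertical axis, 0 is no difference) for the 10 genes (horizontal axis) in WT and Sh3gl1-/- cells, with the SE from edgeR; filled points have an adjusted p under 0.05. Tap2, Tapbp and Psmb10 are called lower in follicular WT cells, and none of the 10 is called in Sh3gl1-/- cells. Of all genes tested, 25.9% are called in WT and 10.4% in Sh3gl1-/- cells.

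The difference between genotypes in this step was tested over the 12 *ex vivo* libraries. By edgeR, 0 of the 10 genes were called, where 0.0686% of 14580 genes were, and 5 of the 10, beside 1992 of all genes, had an unadjusted p under 0.05. Tap2 had the lowest p of the 10, with a difference of 0.60 ± 0.17 and an adjusted p of 0.165. With the replicate number as a block within each genotype, a fit added after the data had been seen, Tap2 was called (0.61, adjusted p = 0.0300), and DESeq2 called it as well (0.62, adjusted p = 0.0213). The comparisons in this section share the transitional and follicular libraries with those above, so their values are not separate evidence.

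Among the companion lists, 16 of 20 interferon-induced genes were called lower in follicular than transitional WT cells and 0 higher, led by Gbp2 (-0.78 ± 0.10, adjusted p = 7.48e-05) and Rsad2 (-1.18 ± 0.19, adjusted p = 6.40e-04). In Sh3gl1-/- cells 6 were called lower, led by Mx1 (-1.85 ± 0.26) and Mx2 (-2.21 ± 0.36). Over all genes tested, 25.9% were called in WT, 14.2% of them all being called lower, and 10.4% in Sh3gl1-/- cells. The 6 macrophage markers, all called lower in follicular WT cells, summed to 528.5-634.4 CPM in transitional and 116.5-149.2 CPM in follicular WT libraries, and their part in these differences was not tested. Ciita was higher in follicular than transitional cells in WT (0.83 ± 0.08) and Sh3gl1-/- cells (0.45 ± 0.08). Cd1d1 was lower in both (-1.01 ± 0.13 and -0.78 ± 0.13).

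Across the 18 libraries the 10 genes did not move as a block. The Pearson correlation of each gene's log2 CPM with the mean standardised level of the 10 was 0.95 for Tap1, 0.79 for Psmb9, 0.71 for Nlrc5, 0.59 for H2-D1, 0.56 for Tap2, 0.51 for Psmb10, 0.36 for Psmb8, 0.17 for H2-K1, 0.16 for B2m and -0.01 for Tapbp, where each gene is part of that mean. Of 15117 other and member genes compared, the non-members most like the mean were I830127L07Rik (0.84), Gm43133 (0.83), Cd160 (0.82), Trbv19 (0.82) and Ifitm6 (0.82). Cd160 is a receptor of NK and T cells and Trbv19 a T-cell receptor segment, and both were rare, with at most 3.22 CPM and 1.503 CPM in a library. The libraries of a group share cell state and genotype, so these correlations over 18 libraries describe the groups more than independent variation.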

How the data were processed

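RNA of 18 libraries from WT and Sh3gl1-/- B cells was analysed. The table deposited by the authors holds, for each library, expected counts as RSEM estimates them, TPM and FPKM; the submitters' processing notes name cutadapt 1.9.1, STAR 2.5.2a, RSEM 1.3.0 and GRCm38, the study's methods name other programs, and strand use in counting is not given in the sources used here. The deposited TPM, scaled by the authors to transcript length and library, was used to compare levels between genes, and the deposited FPKM values were not used. Expected counts, of which 28.5% to 31.0% per library were not whole, were rounded. edgeR 4.0.16 (R 4.3.3; TMM, filterByExpr, glmQLFit, glmQLFTest) was fitted across all genes, with Benjamini-Hochberg adjustment and a threshold of 0.05. Genotypes were compared within each state on 6 libraries, and CD40L and maturation on 12. DESeq2 1.42.0 and 5 other settings, with each library left out, were alternatives. The fits were also run on simulated counts, whose changes were larger than most of those reported for the 10 genes. Recovery of smaller changes was not tested. The 10 genes, companion lists and markers were chosen with earlier results of these data known. The named companion genes are, per list and comparison, at most 2 called genes in each direction with the lowest adjusted p; some genes are not reported here. Same-numbered libraries deviated together, with every correlation over 0.1, in WT follicular and CD40L libraries (0.14 to 0.22) and in transitional and follicular libraries of WT (0.10 to 0.24) and Sh3gl1-/- mice (0.11 to 0.26), but not in every pair of Sh3gl1-/- follicular and CD40L libraries or between genotypes. P-values measure the spread between these libraries.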

Additional observations from a re-analysis of the deposited data

How the results depend on the processing

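The number of the 10 genes called moved by more than 1.5 times under some settings. For Sh3gl1-/- against WT transitional cells, 1 gene was called, but 3 with DESeq2, 3 without the filter on low counts, 0 with the replicate block and 0 in 1 fit of all 18 libraries. In follicular cells 1 became 3 with DESeq2, 2 without the filter, 2 with the replicate block and 0 in the fit of 18 libraries. After CD40L 0 became 1 without the filter and 1 in the fit of 18 libraries. For follicular against transitional cells, 3 became 5 in WT and 0 became 1 in Sh3gl1-/- cells without the filter. For the genotype difference in the CD40L response, 0 became 1 with DESeq2 and 1 without the filter. In that of the maturation step, 0 became 1 with DESeq2, 2 without the filter and 1 with the replicate block within genotype. With each library left out, counts ranged from 0 to 1 and from 0 to 2 for the genotypes in transitional and follicular cells, from 2 to 5 for CD40L in WT, at 4 for CD40L in Sh3gl1-/- cells, and from 2 to 4 for maturation in WT; the cause was not tested. In the genotype comparisons the replicate number is only a number, and the block moved all calls from 514 to 90 in transitional and from 115 to 212 in follicular cells. Where numbers paired the libraries, the block changed no other call than those of Psmb8 and Tap2 given above. The immunosubunit share differences stayed past the threshold over 12 omissions of a library, at -18.8 to -16.2, -15.5 to -14.2 and -22.9 to -21.6 percentage points for Psmb8, Psmb9 and Psmb10, and with the paired sign flips (p = 0.0312, exact). Uncalled log2 fold changes turned in sign when a library was left out: in the transitional genotype comparison Psmb8 from -0.055 to 0.19, Psmb9 from -0.10 to 0.013. In the follicular genotype comparison H2-D1 from -0.34 to 0.096. In the genotype comparison after CD40L Tapbp from -0.19 to 0.053, Psmb9 from -0.012 to 0.14. In the CD40L response of Sh3gl1-/- cells Tapbp from -0.013 to 0.18, Psmb8 from -0.11 to 0.0085. In follicular against transitional WT cells H2-K1 from -0.15 to 0.060, H2-D1 from -0.012 to 0.42, B2m from -0.071 to 0.10, Tap1 from -0.13 to 0.11, Nlrc5 from -0.027 to 0.38. In follicular against transitional Sh3gl1-/- cells H2-K1 from -0.065 to 0.017. In the genotype difference in the CD40L response Tap1 from -0.015 to 0.32. In the genotype difference in the maturation step H2-K1 from -0.088 to 0.12, Nlrc5 from -0.15 to 0.25. For the genotype difference in the maturation step, the replicate block turned H2-K1 to -0.0011 and the replicate block within genotype turned Nlrc5 to -0.022.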
